A study of Mus musculus with 12 samples.

Results

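Reg3b, Reg3g, Reg4, Retnlb, Ang4, Mptx1, Lypd8, Sycn and Sval1 are secreted or surface-bound products of the gut lining, several of them lectins or antimicrobial proteins, and they were taken by gene symbol. All 9 were found among the 27785 genes of the expression table, and all 9 passed the filter of at least 1 FPKM in at least 2 of 12 libraries, as did 17360 genes in all. FPKM is a fragment level scaled to transcript length and to the size of the library. RNA was sequenced from 12 samples of mouse rectum, in groups defined by the Cre recombinase that the mice carried together with floxed Apc, the tumour suppressor gene that restrains Wnt signalling. The Lgr5-Apc group (Lgr5creER;APC flox, n = 4) carried the Cre of Lgr5, a gene of intestinal stem cells. The Cdx2-Apc group (CDX2creER;APC flox, n = 3) carried the Cre of CDX2, a homeobox gene of the hindgut epithelium. The Lgr5-Cdx2-Apc group (Lgr5creER;CDX2creER;APC flox, n = 2) carried both.

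The control group (n = 3) was titled WT, while its genotype entry names CDX2creER;APC flox with WT in brackets, so which alleles these mice carried is unclear. The Cre forms are tamoxifen-dependent, and the protocol common to all 12 samples gives tamoxifen into the abdominal cavity at 25 mg per kg for 5 days. The treatment entry is filled for the Apc groups and is lacking for control, so whether control mice were injected is unclear too. The labels give neither age nor sex, nor whether the samples of a group came from separate animals. The p-values below therefore measure only the spread between these samples, which may in part be technical.

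The epithelium of the large bowel keeps bacteria away from its surface with mucus and with secreted proteins that bind or kill them. Reg3b and Reg3g are C-type lectins of the REG family that kill bacteria at the mucosal surface, and interleukin-22 acting through the transcription factor STAT3 is their best-known inducer. Reg4 is a REG lectin that marks secretory cells of the colonic crypt. Retnlb, the resistin-like molecule of goblet cells, and Ang4, an angiogenin-family ribonuclease with bactericidal activity, are known to increase in worm infection and under type 2 cytokines. Mptx1 is a mucosal pentraxin of the large bowel. Lypd8 is a lipid-anchored protein of colonocytes that binds bacterial flagella and keeps motile bacteria out of the inner mucus. Sycn, syncollin, is best known from the secretory granules of the exocrine pancreas. Sval1 is named for its likeness to a seminal vesicle antigen.

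The genes lie at separate loci of the mouse genome (GRCm38, GENCODE M21, all protein-coding). Reg3b (chr6:78370657-78373466, + strand) and Reg3g (chr6:78466269-78468872, - strand) are neighbours, and their coding sequences were 76.4% identical over 522 aligned bases. The other genes stand at chr3:98222156-98236748 (Reg4), chr16:48816856-48818892 (Retnlb), chr14:51763878-51773590 (Ang4), chr1:174330518-174332873 (Mptx1), chr11:58379043-58390728 (Lypd8), chr7:28540885-28542209 (Sycn) and chr6:41951630-41956098 (Sval1).

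Promoter windows of 250 bases before and 50 bases after the start were found for 8 of the 9 genes in RefSeq (GRCm38.p6). Reg3b and Reg3g are shown first because they are close relatives whose levels were highest in the same library. Capitals mark TATAAA and the STAT-type letters TTCNNNGAA, searched on both strands. The windows lie at chr6:78370635-78370934 (+ strand, Reg3b) and chr6:78468825-78469124 (- strand, Reg3g).
Reg3b: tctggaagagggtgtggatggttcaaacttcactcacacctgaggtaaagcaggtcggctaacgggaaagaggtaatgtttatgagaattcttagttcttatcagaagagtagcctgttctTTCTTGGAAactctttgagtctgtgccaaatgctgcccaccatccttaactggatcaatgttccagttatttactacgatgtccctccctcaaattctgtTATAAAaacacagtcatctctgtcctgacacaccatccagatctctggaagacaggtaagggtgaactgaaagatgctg
Reg3g: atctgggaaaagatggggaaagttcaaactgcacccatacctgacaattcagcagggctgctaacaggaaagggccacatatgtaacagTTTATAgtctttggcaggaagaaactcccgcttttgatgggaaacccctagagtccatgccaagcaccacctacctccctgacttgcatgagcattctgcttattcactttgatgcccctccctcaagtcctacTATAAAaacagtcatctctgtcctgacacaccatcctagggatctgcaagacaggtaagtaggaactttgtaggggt
Aligned to each other, these windows were 69.9% identical over 296 bases. Both held TATAAA just before the RefSeq start, with its first base at -29 in Reg3b and at -27 in Reg3g. For Reg3b that start lies inside the gene as GENCODE gives it (from 78370657), and so does most of the window. The Reg3b window also held TTCTTGGAA from -129, and the Reg3g window held no such letters. TTCNNNGAA stood in 2 of the 9 windows of these genes (Lypd8 has 2 windows; the other match was in Ang4) and in 8.3% of 32851 promoters. TATAAA stood in 3 of the 9 windows and in 13.6% of all promoters. A match describes letters and is no evidence of binding.

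Sycn, Mptx1 and Sval1 are shown next because their levels ran closely together over the libraries. Capitals mark TTTAT, the core letters of the site of CDX homeobox proteins, on either strand. On the opposite strand it reads ATAAA, which lies within TATAAA. The windows lie at chr7:28540635-28540934 (Sycn), chr1:174330268-174330567 (Mptx1) and chr6:41951378-41951677 (Sval1), all on the + strand.
Sycn: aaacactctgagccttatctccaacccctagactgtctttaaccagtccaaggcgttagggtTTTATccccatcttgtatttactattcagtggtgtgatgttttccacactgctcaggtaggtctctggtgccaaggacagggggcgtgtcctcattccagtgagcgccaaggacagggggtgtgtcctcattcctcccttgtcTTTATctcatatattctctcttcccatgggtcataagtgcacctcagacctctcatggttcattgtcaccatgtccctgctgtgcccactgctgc
Mptx1: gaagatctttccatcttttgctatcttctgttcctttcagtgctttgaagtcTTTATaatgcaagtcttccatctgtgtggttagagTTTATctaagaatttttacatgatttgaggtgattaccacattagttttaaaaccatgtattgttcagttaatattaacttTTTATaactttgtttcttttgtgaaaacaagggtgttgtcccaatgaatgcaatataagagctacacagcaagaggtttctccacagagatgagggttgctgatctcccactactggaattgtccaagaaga
Sval1: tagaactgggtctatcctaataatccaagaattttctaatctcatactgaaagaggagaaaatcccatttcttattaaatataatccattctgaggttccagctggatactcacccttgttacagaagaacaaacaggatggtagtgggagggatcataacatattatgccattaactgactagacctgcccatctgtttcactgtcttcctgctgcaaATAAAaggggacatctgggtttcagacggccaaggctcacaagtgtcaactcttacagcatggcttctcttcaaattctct
The Sycn window held TTTAT at -188 and -45, the Mptx1 window at -198, -163 and -82, and the Sval1 window held the reverse form at -31. These letters stood in 5 of the 9 windows and in 40.0% of all promoters, so their presence is common. GTTAAT, letters of the hepatocyte nuclear factor 1 site, stood in 4 of the 9 windows and in 7.1% of all promoters. AGATAA, letters of the GATA factor site, stood in 4 of the 9 windows and in 11.2% of all promoters.

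Some facts of the whole series bear on these values. Apc, the floxed gene, lay between 13.5 and 18.8 FPKM in all 12 libraries and passed no test (adjusted p between 0.279 and 1 over 6 comparisons). Its FPKM is taken over all exons, so the loss of floxed ones cannot be read from it. Summed values per library lay between 451297 and 728462 FPKM, with 20522 to 22562 genes above 0. Depth in reads is unknown, and a gene without signal is described as listed at 0. Columnar epithelium markers (8 genes, among them Krt8 and Epcam) had a mean log2(FPKM + 1) of 6.33 and 3.84 in Lgr5-Cdx2-Apc, 6.35 in Lgr5-Apc replicate 2 and 8.03 to 8.77 in the other 9 libraries. Xist, which is expressed from the inactive X chromosome, was at 0.702 to 1.12 FPKM in the Cdx2-Apc libraries and at 61.1 to 266 FPKM in the other 9. Eif2s3y, a Y-linked gene, was at 24.7 to 28.5 FPKM in Cdx2-Apc and at no more than 3.06 FPKM elsewhere, so sex and the Cdx2-Apc group cannot be told apart. Over 5 sex-linked genes, Xist and Y-linked ones, the mean log2(FPKM + 1) was 2.62 in control replicate 1. It was 1.45 and 1.43 in control replicates 2 and 3, and the reason was not tested.

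In most libraries the 9 genes fell into an abundant set and a scarce set. Lypd8, Sycn, Mptx1, Sval1 and Reg4 averaged 3389, 1469, 503, 342 and 130.02 FPKM over the 12 libraries. Reg3b, Reg3g, Retnlb and Ang4 had medians of 1.25, 0.891, 0.989 and 0.923 FPKM. Medians are given for these because Lgr5-Apc replicate 4 held 504 FPKM of Reg3b and 100.3 FPKM of Reg3g, which would dominate a mean. Each of the abundant genes reached 1 FPKM in 12 libraries, and the scarce genes, in the order given, in 7, 6, 6 and 5. Reg3b ranked above Reg4 in both Lgr5-Cdx2-Apc libraries, and above Mptx1 and Sval1 in replicate 2. Lypd8 ranked first of the 9 in every library and Sycn ranked second in 11 of 12, the exception being Lgr5-Apc replicate 4, where Reg3b ranked second. Among all genes Lypd8 ranked between 4 and 12 in 9 libraries, 50 in Lgr5-Apc replicate 2, and 34 and 694 in Lgr5-Cdx2-Apc. The 9 genes together made up 0.208% and 0.0189% of summed FPKM in Lgr5-Cdx2-Apc, 0.238% to 1.49% in Lgr5-Apc and 1.32% to 1.93% in Cdx2-Apc, against 0.701% to 1.95% in control.

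**Figure D1:**
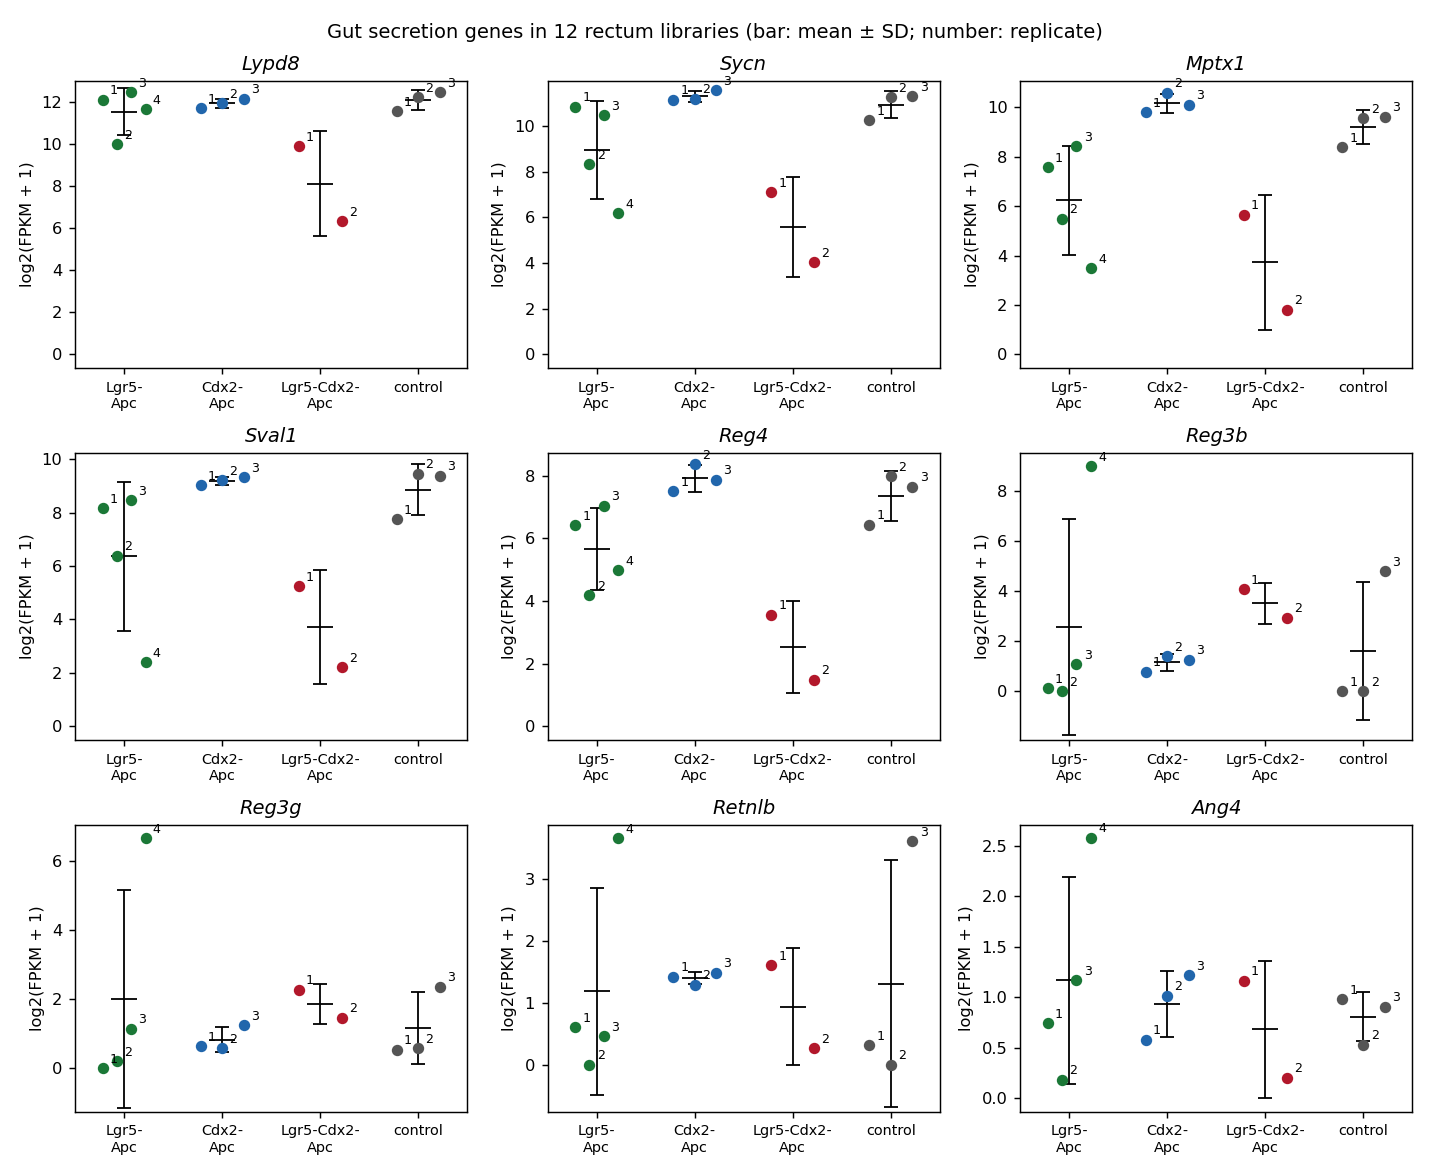
Levels of the 9 genes as log2(FPKM + 1) in each library, by group; points are libraries with their replicate number, and bars are the group mean ± SD. The 5 abundant genes are lowest in Lgr5-Cdx2-Apc replicate 2, and the 4 scarce genes are highest in Lgr5-Apc replicate 4.

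In the Lgr5-Cdx2-Apc libraries the 5 abundant genes were far below control, and the 4 scarce genes did not pass the test. Of the 9 genes, 5 were called lower and 0 higher, beside 8.55% of all 17360 genes called lower and 10.5% called higher. Called means an adjusted p below 0.05 in limma, fitted across all genes with Benjamini-Hochberg adjustment. The median log2 difference of the 9 genes was -3.97, beside 0.07 over all genes tested. In bulk tissue, fewer cells of a type and less RNA per cell cannot be told apart.

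Lypd8 was at 947 and 80.4 FPKM in Lgr5-Cdx2-Apc, against 3018, 4843 and 5667 FPKM in control. The log2(FPKM + 1) difference was -3.97 ± 0.99 (SE), a level 15.7-fold lower (adjusted p = 0.0241). The groups did not overlap, and Lgr5-Cdx2-Apc replicate 2 lay far below replicate 1.

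Sycn was at 137 and 15.3 FPKM in Lgr5-Cdx2-Apc, against 1221, 2459 and 2527 FPKM in control, a log2 difference of -5.37 ± 1.27 (adjusted p = 0.0203). Mptx1 was at 49.5 and 2.50 FPKM in Lgr5-Cdx2-Apc, against 334, 751 and 789 FPKM in control, a log2 difference of -5.46 ± 1.37 (adjusted p = 0.0247). Sval1 was at 36.8 and 3.63 FPKM in Lgr5-Cdx2-Apc, against 214, 702 and 666 FPKM in control, a log2 difference of -5.14 ± 1.55 (adjusted p = 0.0439). For each of these genes every Lgr5-Cdx2-Apc library lay below every control library, and control replicate 1 was the lowest of its group.

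Reg4, the crypt REG lectin, was at 10.8 and 1.81 FPKM in Lgr5-Cdx2-Apc, against 86.2, 252 and 201 FPKM in control. Its log2 difference of -4.84 ± 0.86 had the smallest adjusted p of the 9 genes (0.00771). No overlap of this direction was seen for 5 of the 9 genes, beside 25.3% of all genes tested.

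The scarce genes overlapped between these groups. Reg3b was at 15.9 and 6.62 FPKM in Lgr5-Cdx2-Apc, against values listed at 0, 0 and 26.6 FPKM in control (log2 difference 1.91 ± 2.41, adjusted p = 0.588). Reg3g was at 3.85 and 1.76 FPKM in Lgr5-Cdx2-Apc, against 0.457, 0.493 and 4.13 FPKM in control (0.71 ± 1.62, adjusted p = 0.777). For both lectins control replicate 3 was above both Lgr5-Cdx2-Apc libraries and the other control libraries were below them. Retnlb (-0.37 ± 1.19, adjusted p = 0.844) and Ang4 (-0.12 ± 0.58, adjusted p = 0.897) were not called either. In control Retnlb was at 0.245, 0 and 11.3 FPKM and Ang4 at 0.972, 0.441 and 0.874 FPKM. With a pseudocount of 1 FPKM, a fall as large as that of the abundant genes could not be seen from such levels.

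**Figure D2:**
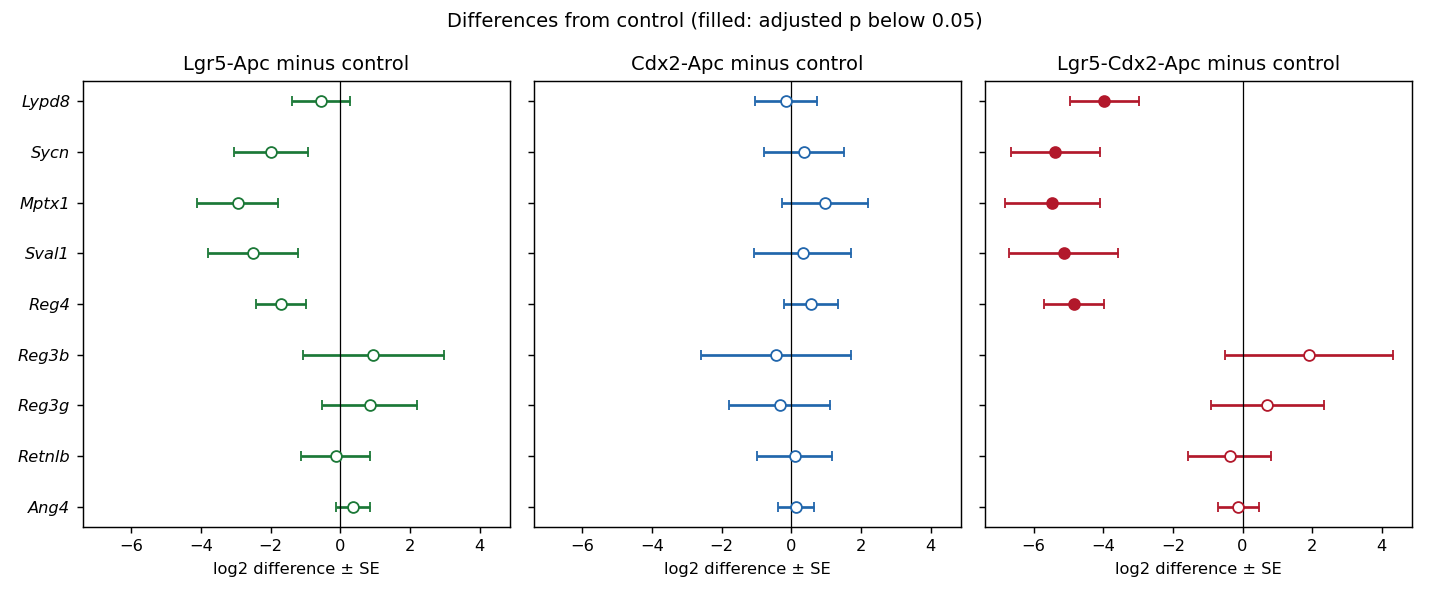
Log2(FPKM + 1) difference from control ± SE for each of the 9 genes, with a panel for each of the 3 Apc groups; filled points had an adjusted p below 0.05 in limma. Only the Lgr5-Cdx2-Apc panel has filled points, 5 in all, between -3.97 and -5.46.

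The calls in Lgr5-Cdx2-Apc against control depended on single libraries. Without Lgr5-Cdx2-Apc replicate 2, 0 of the 9 genes were called, and the log2 differences of the 5 abundant genes lay between -2.20 and -3.83. Without control replicate 2, and also without control replicate 3, Reg4 alone was called. With genes of any level kept in the test, 3 were called, Lypd8 (adjusted p = 0.0823) and Sval1 (adjusted p = 0.0630) being lost. Lypd8 also missed the threshold under quantile normalization (adjusted p = 0.0513) and with only the 2 groups in the fit (adjusted p = 0.0567). Sval1 missed it when any 1 Cdx2-Apc library was left out of the fit (adjusted p between 0.0613 and 0.0637). Over the 23 alternatives, Reg4 was called in 21, Sycn and Mptx1 in 19 each, Lypd8 in 16 and Sval1 in 14.

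Columnar epithelium markers moved with these genes. All 8 were called lower in Lgr5-Cdx2-Apc than in control, with a median log2 difference of -3.33 and none listed at 0. When the columnar score was subtracted from log2(FPKM + 1), Lypd8 stood at 3.56 and 2.51 in Lgr5-Cdx2-Apc, and control libraries at 3.53 to 4.01. Sycn stood at 0.78 and 0.19 in Lgr5-Cdx2-Apc, and control libraries at 2.22 to 3.03. On this relative scale Lypd8 of Lgr5-Cdx2-Apc replicate 1 fell within the control range and replicate 2 below it, while Sycn was below the control range in both.

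Mptx1 relative to the columnar score was at -0.67 and -2.03 in Lgr5-Cdx2-Apc, and control libraries at 0.35 to 1.32. Sval1 was at -1.09 and -1.63 in Lgr5-Cdx2-Apc, and control libraries at -0.29 to 1.22, and Reg4 was at -2.77 and -2.35 in Lgr5-Cdx2-Apc, and control libraries at -1.59 to -0.25. All 3 lay below control in both libraries. With the columnar score as a term of the fit, the log2 differences between Lgr5-Cdx2-Apc and control were -0.16 for Lypd8 (adjusted p = 0.965), -2.94 for Sycn (0.715), -2.41 for Mptx1 (0.757), -3.39 for Sval1 (0.742) and -2.01 for Reg4 (0.608), and 0 were called. Over all genes, 64 were called in that fit, against 3315 without the term. The score was 6.33 and 3.84 in Lgr5-Cdx2-Apc and 8.03 to 8.71 in control, without overlap. The fit therefore cannot separate the score from the group, and the lost calls do not show what part the score has.

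**Figure D3:**
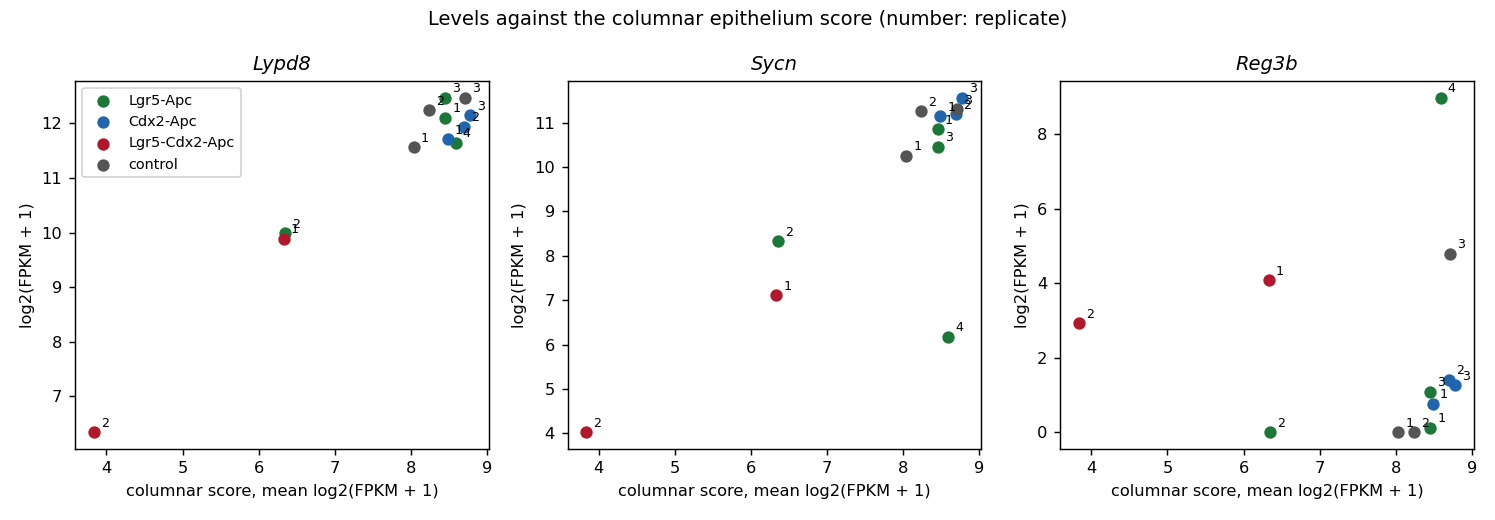
Level of Lypd8, Sycn and Reg3b as log2(FPKM + 1) against the columnar epithelium score, the mean log2(FPKM + 1) of 8 markers, with 1 point per library labelled by replicate. Lgr5-Cdx2-Apc replicate 2 has the lowest score (3.84), while Lgr5-Apc replicate 4 has a score of 8.59 with low Sycn and the highest Reg3b.

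Other tissues also differed between these libraries. Squamous epithelium markers had a mean log2(FPKM + 1), given here as a score, of 6.93 and 8.76 in Lgr5-Cdx2-Apc, against 6.15, 2.02 and 1.79 in control. Smooth muscle markers scored 3.49 and 2.66 in Lgr5-Cdx2-Apc, while control libraries scored 8.27 to 8.60 and Lgr5-Apc libraries 6.29 to 8.45. Skeletal muscle markers scored 4.35 and 4.63 in Lgr5-Cdx2-Apc, while control libraries scored 0.79 to 1.03. High scores of these 2 kinds were not confined to Lgr5-Cdx2-Apc. In Lgr5-Apc replicates 1 to 4 the squamous score was 4.39, 9.48, 8.58 and 0.725. The skeletal muscle score there was 1.98, 4.62, 1.05 and 0.571. Leukocyte markers scored 2.54 and 2.97 in Lgr5-Cdx2-Apc, while control libraries scored 0.838 to 1.74. Of the markers tested, 3 of 15 squamous, 6 of 7 skeletal muscle and 4 of 10 leukocyte genes were called higher in Lgr5-Cdx2-Apc than in control, and all 8 smooth muscle genes lower. Goblet cell markers scored 6.27 and 4.05 in Lgr5-Cdx2-Apc, while control libraries scored 6.60 to 8.25, with 4 of 10 called lower. Colonocyte markers scored 6.96 and 3.86 in Lgr5-Cdx2-Apc, while control libraries scored 8.13 to 9.03, with 6 of 10 called lower. The part of these tissues and cell types in the results was not tested.

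Lgr5-Cdx2-Apc was next compared with the groups carrying a single Cre, which asks whether both Cre alleles together differ from either. Against Cdx2-Apc, the same 5 genes were called lower and 0 higher, beside 11.7% of all genes called lower and 12.1% called higher. Lypd8 was at 947 and 80.4 FPKM in Lgr5-Cdx2-Apc, against 3355, 3926 and 4556 FPKM in Cdx2-Apc (log2 difference -3.82 ± 0.99, adjusted p = 0.0233). Mptx1 was at 49.5 and 2.50 FPKM in Lgr5-Cdx2-Apc, against 893, 1533 and 1099 FPKM in Cdx2-Apc, the largest of these differences (-6.43 ± 1.37, adjusted p = 0.0120). The groups did not overlap for any of the 5, as for 30.4% of all genes in that direction, and the Cdx2-Apc libraries were close to each other.

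Sycn differed by -5.73 ± 1.27 (adjusted p = 0.0138), Sval1 by -5.46 ± 1.55 (adjusted p = 0.0314) and Reg4 by -5.39 ± 0.86 (adjusted p = 0.00422). Reg3b was at 15.9 and 6.62 FPKM in Lgr5-Cdx2-Apc, against 0.701, 1.64 and 1.39 FPKM in Cdx2-Apc, without overlap. The test did not call it (2.36 ± 2.41, adjusted p = 0.493). Its SE pools the spread of all groups, Lgr5-Apc replicate 4 (504 FPKM) and control replicate 3 (26.6 FPKM) included. Reg3g lay higher without overlap too (1.04 ± 1.62, adjusted p = 0.661), as did 33.4% of all genes. With only the 2 groups in the fit, Reg3b was called (adjusted p = 0.0120), and with the replicate number as a block Reg3g was called higher (1.43, adjusted p = 0.0299). With genes of any level kept in the test, the call on Lypd8 was lost (adjusted p = 0.0836). Without Lgr5-Cdx2-Apc replicate 2, 0 genes of the 9 were called in this comparison, and without Cdx2-Apc replicate 2 or replicate 3, 3 were called.

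Against Lgr5-Apc, 2 of the 9 genes were called lower and 0 higher, beside 3.77% and 5.22% of all genes. Reg4 was at 10.8 and 1.81 FPKM in Lgr5-Cdx2-Apc, against 84.5, 17.2, 131.04 and 30.6 FPKM in Lgr5-Apc (log2 difference -3.13 ± 0.81, adjusted p = 0.0421). Lypd8 was at 947 and 80.4 FPKM in Lgr5-Cdx2-Apc, against 4395, 1011, 5666 and 3206 FPKM in Lgr5-Apc (-3.43 ± 0.94, adjusted p = 0.0489). Neither gene overlapped between the groups, as for 14.9% of all genes in that direction, although Lgr5-Apc replicate 2 came close to Lgr5-Cdx2-Apc replicate 1 for Lypd8.

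Sycn (-3.38 ± 1.21, adjusted p = 0.0972), Mptx1 (-2.51 ± 1.30, adjusted p = 0.223) and Sval1 (-2.63 ± 1.48, adjusted p = 0.256) were not called against Lgr5-Apc and overlapped through Lgr5-Apc replicate 4. Without that library, Sycn (-4.31, adjusted p = 0.0297) and Sval1 (-3.95, adjusted p = 0.0352) were called and Lypd8 was not (adjusted p = 0.0745). The calls on Reg4 and Lypd8 were close to the threshold, and over 23 alternatives Reg4 was called in 9 and Lypd8 in 5. With the replicate number as a block neither was called (adjusted p = 0.106 and 0.115). Reg3g was then called higher in Lgr5-Cdx2-Apc than in Lgr5-Apc (1.80, adjusted p = 0.0430). Number 4 is held by Lgr5-Apc replicate 4 alone, so the block also takes that library out of the comparison. Without that library and with no block, Reg3g differed by 1.42 and was not called (adjusted p = 0.145). Leaving out a library gave between 0 and 3 called genes.

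Within the single-Cre groups no gene of the 9 was called. In Lgr5-Apc against control, 0 of 9 were called, beside 0.0115% of all genes. An unadjusted p below 0.05 was seen for 2 of the 9, beside 1881 of all 17360 genes. Mptx1 was at 188, 43.8, 340.1 and 10.3 FPKM in Lgr5-Apc, against 334, 751 and 789 FPKM in control (log2 difference -2.95 ± 1.15, unadjusted p = 0.0274, adjusted p = 0.428). Reg4 was at 84.5, 17.2, 131.04 and 30.6 FPKM in Lgr5-Apc, against 86.2, 252 and 201 FPKM in control (-1.70 ± 0.72, unadjusted p = 0.0379, adjusted p = 0.437). For both genes 3 of 4 Lgr5-Apc libraries lay below every control library.

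In Cdx2-Apc against control, 0 of the 9 genes were called, beside 0.0403% of all genes. An unadjusted p below 0.05 was seen for 0 of the 9, beside 285 of all 17360 genes. Mptx1 was at 893, 1533 and 1099 FPKM in Cdx2-Apc, against 334, 751 and 789 FPKM in control, without overlap (0.97 ± 1.23, adjusted p = 1), as were 5.88% of all genes in that direction. The other 8 genes overlapped, and Retnlb and Reg3b were more even in Cdx2-Apc than in control. Retnlb was at 1.68, 1.45 and 1.80 FPKM in Cdx2-Apc, against 0.245, 0 and 11.3 FPKM in control.

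Lgr5-Apc and Cdx2-Apc also gave 0 called genes of 9, beside 0.0346% of all genes. An unadjusted p below 0.05 was seen for 2 of the 9, beside 1800 of all 17360 genes. Mptx1 (-3.92 ± 1.15, adjusted p = 0.352), Sval1 (-2.83 ± 1.30, adjusted p = 0.485), Sycn (-2.35 ± 1.06, adjusted p = 0.484) and Reg4 (-2.26 ± 0.72, adjusted p = 0.371) lay lower in all 4 Lgr5-Apc libraries than in any Cdx2-Apc library. That direction without overlap was seen for 6.76% of all genes. Lypd8 overlapped, at 4395, 1011, 5666 and 3206 FPKM in Lgr5-Apc, against 3355, 3926 and 4556 FPKM in Cdx2-Apc (-0.38 ± 0.83, adjusted p = 0.881). The ratio of Lypd8 to Mptx1 was 23.3, 23.1 and 16.7 in Lgr5-Apc replicates 1 to 3 and 311 in replicate 4. It was 2.56 to 4.15 in Cdx2-Apc, 19.2 and 32.2 in Lgr5-Cdx2-Apc, and 6.45 to 9.03 in control.

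A single library, Lgr5-Apc replicate 4, turned the order of these genes. Reg3b, a bactericidal lectin, was at 504 FPKM there, rank 77 among all genes, against 0.0829, 0 and 1.11 FPKM in the other Lgr5-Apc libraries. Reg3g was at 100.3 FPKM there, against 0, 0.160 and 1.21 FPKM in the others. The next highest library over the whole series was control replicate 3 for both lectins, with 26.6 FPKM of Reg3b and 4.13 FPKM of Reg3g, and Lgr5-Apc replicate 4 stood 19.0-fold and 24.3-fold above it.

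Retnlb was at 11.7 FPKM in Lgr5-Apc replicate 4, beside 11.3 FPKM in control replicate 3 and 2.05 FPKM or less in the other 10 libraries. Ang4 was at 4.98 FPKM there, 3.76-fold above the next library. Sycn (71.5 FPKM), Mptx1 (10.3 FPKM) and Sval1 (4.31 FPKM) were lowest of their group in the same library, while Lypd8 (3206 FPKM) was not.

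Reg3b exceeded Reg3g severalfold in the libraries that held the most of them. The ratio of Reg3b to Reg3g was 5.02 in Lgr5-Apc replicate 4 and 4.13 and 3.76 in Lgr5-Cdx2-Apc, against 6.43 in control replicate 3. Their coding sequences are 76.4% identical, and whether any reads were counted for the wrong gene of the pair was not tested. The ratio of Sycn to Sval1 lay between 3.50 and 6.40 in 11 libraries and was 16.6 in Lgr5-Apc replicate 4.

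Other genes marked the same library. Cdx2 was at 151 FPKM in Lgr5-Apc replicate 4, against 0.836, 0.248 and 0.858 FPKM in the other Lgr5-Apc libraries. Hoxb13, the homeobox gene of the most posterior gut, was at 0.924 FPKM there, against 110.3, 26.9 and 118 FPKM in the others. Muc2, the main mucin of goblet cells, was at 7725 FPKM there, against 204, 36.6 and 156 FPKM in the others. The columnar score was 8.59 and the squamous score 0.725 there. The part of these differences in the levels of the lectins was not tested.

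Across the 12 libraries the genes were compared by profile, as the root mean square distance between log2(FPKM + 1) values centred on each gene's mean. This likeness describes points that share library and tissue makeup. Sycn and Sval1 were nearest to each other among the 9 (0.54), followed by Mptx1 and Sval1 (0.66), and Reg3b was nearest to Reg3g (1.05). Over all genes, Lypd8 was nearest to Muc13 (0.16), a transmembrane mucin, and Aoc1 (0.21), the diamine oxidase. Sycn was nearest to B3gnt7 (0.15), a glycosyltransferase, and Ly6g (0.49), a surface antigen best known from neutrophils. For comparison, the median distance from Sycn to all genes was 2.42.

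Ly6g was at 10.4 and 0.579 FPKM in Lgr5-Cdx2-Apc, 25.6 to 124 FPKM in Lgr5-Apc replicates 1 to 3, 1.13 FPKM in replicate 4 and 94.7 to 141 FPKM in Cdx2-Apc, against 102 to 169 FPKM in control. S100a8, an abundant neutrophil gene, was at 13.8 and 66.4 FPKM in Lgr5-Cdx2-Apc and at 0.193 to 1.90 FPKM in control, the opposite order. Sval1 was nearest to Hoxb13 (0.42) and Ly6g (0.42), and Mptx1 to B3gnt7 (0.74) and Hoxb13 (0.86). Reg4 was nearest to Slc26a3 (0.49), the chloride-bicarbonate exchanger of colonocytes, and Gsdmc4 (0.49), of the gasdermin family.

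Reg3b was nearest to Defb37 (0.93), a beta-defensin gene, and Isx (1.02), an intestinal homeobox gene. Isx was at 104 FPKM in Lgr5-Apc replicate 4, against 0.678 to 0.927 FPKM in the other Lgr5-Apc libraries. Reg3g was nearest to Prkg2 (0.45), a cyclic GMP-dependent kinase, and Slc51a (0.47), a bile acid transporter subunit. Slc51a was at 70.7 FPKM in Lgr5-Apc replicate 4 and at 0.607 FPKM or less in the others of that group. Retnlb was nearest to Slc35d1 (0.64) and Hsd3b2 (0.65), and Ang4 to Abcb6 (0.25) and Trim15 (0.25). The scarce genes vary little outside a few libraries, so their distances rest on these.

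**Figure D4:**
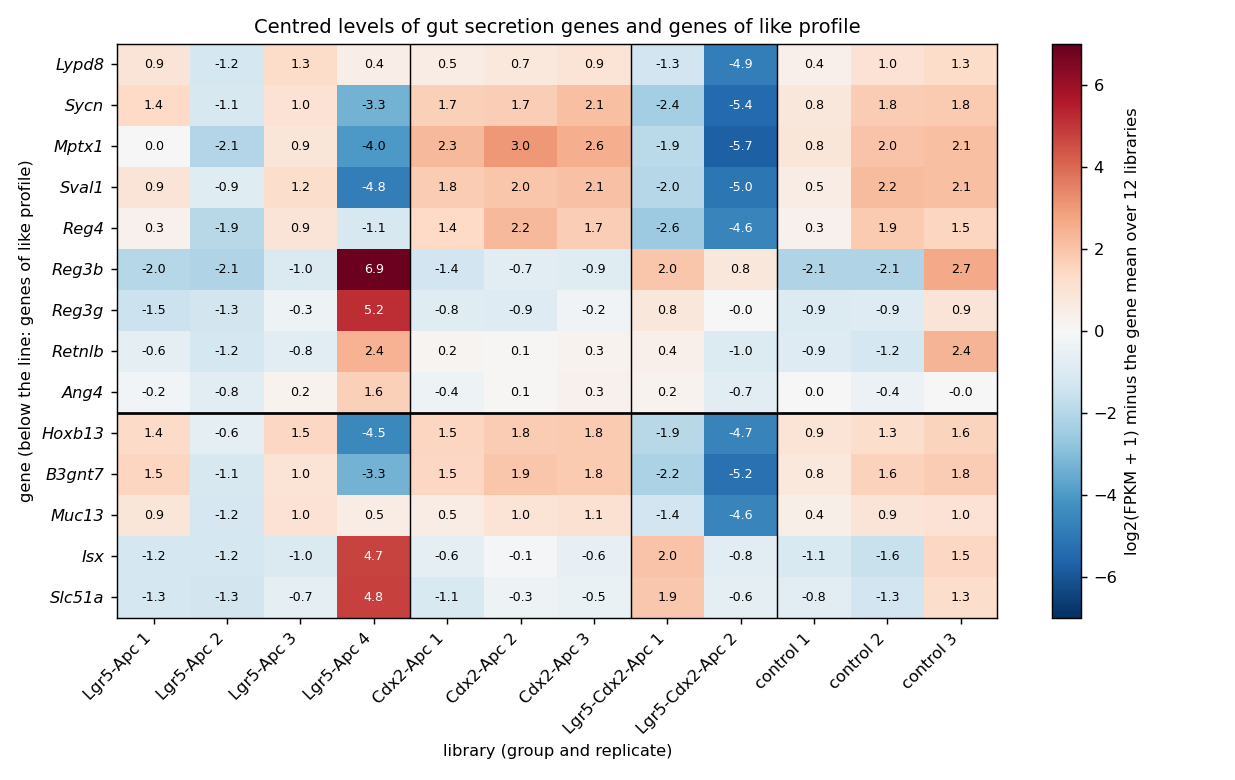
Log2(FPKM + 1) minus the gene's mean over 12 libraries, for the 9 genes (above the line) and 5 genes of like profile (below it), with libraries in columns by group. Hoxb13 and B3gnt7 follow Sycn, Mptx1 and Sval1, falling in Lgr5-Apc replicate 4 and Lgr5-Cdx2-Apc, while Isx and Slc51a peak with Reg3b and Reg3g.

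Sycn and Sval1 carry names from other organs, and markers of those organs were read in the same libraries. Of 16 pancreatic acinar markers, 15 were in the table and 4 passed the filter. The 15 markers summed to 28.2 and 6.93 FPKM in Lgr5-Cdx2-Apc and 52.1 to 353 FPKM in the other 10 libraries. By detection the order was opposite. Of the 15, 2 and 3 were listed at 0 in Lgr5-Cdx2-Apc, and 5 to 11 in the other 10 libraries. Cela1, an elastase-like protease, and Clps, the pancreatic colipase, made up most of the sum in control. They were the 2 called lower of the 4 tested. Cela1 averaged 10.7 FPKM in Lgr5-Cdx2-Apc and 207 FPKM in control (log2 difference -4.60 ± 1.00, adjusted p = 0.0155), and Clps averaged 3.83 FPKM in Lgr5-Cdx2-Apc and 40.9 FPKM in control (-3.27 ± 0.68, adjusted p = 0.0137). The 9 seminal vesicle markers were all listed at 0 in 9 of 12 libraries, while Sval1 there reached 702 FPKM. Markers of Paneth cells, the antimicrobial cells of the small intestine, summed to 0.602 to 25.8 FPKM.

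Relatives of the 9 genes were mostly scarce. Of 18 family paralogs 11 were in the table, 6 passed the filter and 0 were called in any of the 6 comparisons, with a median log2 difference of 0.60 in Lgr5-Cdx2-Apc against control. Mptx2, whose coding sequence is 91.9% identical to that of Mptx1, was listed at 0 in 11 libraries and at 0.0876 FPKM in Lgr5-Apc replicate 3. Ang, 85.4% identical to Ang4, was at 6.72 to 29.2 FPKM, well above Ang4, and was highest in Lgr5-Apc replicate 4. Ang5 and Ang2 are 88.7% and 88.0% identical to Ang4. Whether reads were shared among these genes was not tested, and the levels of Ang4 are uncertain to that extent. Retnla, 74.6% identical to Retnlb, was at 0.641 FPKM in Lgr5-Apc replicate 4, the library highest in Retnlb.

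Other defence genes of the gut were read from a list of 26. Of these 20 were tested, and in Lgr5-Cdx2-Apc against control 8 were called lower and 1 higher, beside 8.55% of all genes called lower and 10.5% called higher. Their median log2 difference was -1.25, beside 0.07 over all genes, and 11 did not pass. Wfdc2, a secreted protease inhibitor of goblet cells, averaged 16.8 FPKM in Lgr5-Cdx2-Apc and 264 FPKM in control (-4.29 ± 0.79, adjusted p = 0.00886). Pigr, the receptor that carries immunoglobulin A into the lumen, averaged 52.0 FPKM in Lgr5-Cdx2-Apc and 601 FPKM in control (-4.13 ± 0.82, adjusted p = 0.0116). Pglyrp1, Saa1, Lgals4, Ccl28, Dmbt1 and Duoxa2 were called lower as well. Lgals4 is also among the columnar markers. Nod2, an intracellular sensor of bacterial cell wall, was higher, at 7.01 FPKM in Lgr5-Cdx2-Apc and 0.694 FPKM in control (2.27 ± 0.46, adjusted p = 0.0128).

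The same list gave 9 lower and 1 higher in Lgr5-Cdx2-Apc against Cdx2-Apc, beside 11.7% and 12.1% of all genes. It gave 5 lower and 0 higher against Lgr5-Apc, beside 3.77% and 5.22% of all genes, and 0 called in the other 3 comparisons. Dmbt1, a scavenger receptor of mucosal surfaces, was at 1367 FPKM in Lgr5-Apc replicate 4, against 453, 126 and 479 FPKM in the other Lgr5-Apc libraries. Zg16, a lectin-like protein of goblet cells, was at 1749 FPKM in that library, against 584, 74.8 and 494 FPKM in the others, a level within the 379 to 1821 FPKM of control. Saa1, an acute-phase protein, was at 36.6 FPKM there, against 62.3, 53.9 and 114 FPKM in the others.

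Genes of the cytokine and microbial sensing pathways known to act on Reg3b, Reg3g, Retnlb and Ang4 were read from a list of 27, of which 19 were tested. In Lgr5-Cdx2-Apc against control 5 were called higher and 3 lower, beside 10.5% and 8.55% of all genes, and 11 did not pass. Their median log2 difference was 0.59, beside 0.07 over all genes. Tnf averaged 2.20 FPKM in Lgr5-Cdx2-Apc and 0.207 FPKM in control (1.41 ± 0.19, adjusted p = 0.00220). Il4ra, the receptor chain for the type 2 cytokines, averaged 22.1 FPKM in Lgr5-Cdx2-Apc and 4.03 FPKM in control (2.22 ± 0.30, adjusted p = 0.00222). Socs3, a feedback target of STAT3, averaged 8.75 FPKM in Lgr5-Cdx2-Apc and 2.10 FPKM in control (1.72 ± 0.48, adjusted p = 0.0350). Il6ra and Il1b were higher, and Tlr4 and Il10rb were among those lower.

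Il22 was listed at 0 in 11 libraries and at 0.0935 FPKM in Lgr5-Cdx2-Apc replicate 2, so its level could not be read. Il22ra1, the epithelial receptor of interleukin-22, was at 16.0 FPKM in Lgr5-Apc replicate 4, within the 11.8 to 20.6 FPKM of the other Lgr5-Apc libraries. Socs3 was at 3.21 FPKM in that library, likewise within the 2.06 to 8.97 FPKM of the others.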

How the data were processed

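RNA was measured in 12 mouse rectum samples. Per the labels' protocols, RNA was purified with an RNeasy kit and DNase and made into strand-specific libraries, and per the submitters' processing notes STAR, Cufflinks and Cuffdiff were used on mm10, with versions not given in the sources used here. The authors deposited 1 table of FPKM values, named here from the notes and the values, since its header gives no unit. Whether libraries were rescaled to each other is not given, depth is unknown, and whole reads were not recovered, so no counting interval was computed. Of 27831 lines, 25 carried names turned into dates and stayed unnamed, and 46 repeated symbols kept the line of highest mean, which left 27785 genes.

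A pseudocount of 1 FPKM was added before taking log2, which understates the change of low genes. The 17360 genes that reached 1 FPKM in 2 or more libraries were fitted with limma 3.58.1 in R 4.3.3, a term per group over all 12 libraries and a trended prior. There were 6 comparisons, two-sided, each with Benjamini-Hochberg adjustment over all genes and a threshold of 0.05. The fit was tested on simulated data. The 9 genes and all gene lists were chosen with earlier results of these data known. Named genes are the 9 genes, the 2 genes nearest to each in profile, called genes of the lists and the genes the labels name. A few more (S100a8, Muc2, Zg16, Ang, Retnla, Il22ra1) were named after their values were seen. A called gene of the cytokine list is counted but not reported here by name. Coding identities and promoter motifs were computed with Biopython 1.88 in Python 3.11.15. Up to 23 alternatives were run per result: pseudocount, filter, scaling, samples in the fit, weights, robust moderation, a replicate block, a columnar covariate and leaving out each library.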

Additional observations from a re-analysis of the deposited data

Results flagged for a closer look

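In the Lgr5-Apc group, the only group of 4 libraries, replicate 4 stood apart from the others by Dixon's test of the gap to the nearest library. It did so for Reg3b at 504 FPKM, or 8.98 on the log2(FPKM + 1) scale. It also did so for Reg3g at 100.3 FPKM. Retnlb stood apart at 11.7 FPKM, or 3.67 on the log2 scale. These are 5 of 18 measures tested, all in the same library. Chance gives such a mark in about 1 of 20 groups of independent, normally distributed values. The 18 measures are 9 genes on 2 scales in the same 4 libraries, so that rate does not apply to them and chance was not assessed. The markers that differ in this library are given with the results, and their part in these values was not tested.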

How the results depend on the processing

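The alternatives were a pseudocount of 0.1 or 0.5 FPKM, no filter on low values, a mean of at least 5 FPKM, quantile or median-of-ratios normalization, robust moderation of the spread, only the 2 groups compared, limma's sample quality weights, the replicate block, the columnar marker level as a covariate, and leaving out each library in turn. The 12 called differences of the 9 genes had 276 alternatives, of which 201 kept direction and call, 74 kept the direction without the call and 1 reversed. The 42 differences that were not called had 954 alternatives, of which 67 reversed and 8 passed the threshold, 1 of them after reversing (Reg3g with the replicate block). Ang4 and Retnlb had 1 alternative fewer, since neither reached a mean of 5 FPKM. Quantile normalization set the median log2 difference of all genes for Lgr5-Cdx2-Apc against control at -0.046, a shift of -0.12 beside 0.07 as reported, while the other shifts under either scaling were below 0.1 in size. With 2 Lgr5-Cdx2-Apc libraries, leaving 1 out leaves a lone library that is assumed to vary like the other groups. The depth behind the FPKM values is unknown, so no counting interval could be given. The cause was not tested for any change below, beyond the fewer samples or genes that an alternative holds by construction, the replicate block included.

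Log2 differences that changed sign were all of differences not called in the report, except Lypd8 with the covariate. With a pseudocount of 0.1, Retnlb was at 0.073 for Lgr5-Apc against control, 0.14 for Lgr5-Cdx2-Apc against control and 0.071 for Lgr5-Cdx2-Apc against Lgr5-Apc, Reg3b at 0.99 for Cdx2-Apc against control, and Reg3g at 1.00 for Lgr5-Cdx2-Apc against Lgr5-Apc. With a pseudocount of 0.5, Reg3g was at 0.19 for Lgr5-Cdx2-Apc against Lgr5-Apc. With quantile normalization, Lypd8 was at 0.10 for Cdx2-Apc against control. With quality weights, Reg3b was at -1.31 and Reg3g at -0.26 for Lgr5-Apc against control, Retnlb at -0.81 for Cdx2-Apc against control, Reg3g at 0.48 and Retnlb at 0.18 for Lgr5-Cdx2-Apc against Lgr5-Apc, and Lypd8 at 0.0064 for Lgr5-Apc against Cdx2-Apc. With the columnar covariate, Retnlb was at 0.18 for Lgr5-Apc against control, and Retnlb at -0.19 and Ang4 at -0.038 for Cdx2-Apc against control. With the covariate, Retnlb was at 2.36 and Ang4 at 1.57 for Lgr5-Cdx2-Apc against control, and Reg3g at 2.46, Retnlb at 2.18, Ang4 at 1.01 and Mptx1 at 0.20 for Lgr5-Cdx2-Apc against Lgr5-Apc. With it, Retnlb was at 2.55, Ang4 at 1.61 and Lypd8 at 0.38 for Lgr5-Cdx2-Apc against Cdx2-Apc, and Retnlb at 0.37 and Lypd8 at 0.43 for Lgr5-Apc against Cdx2-Apc.

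Replicate numbers did not pair the libraries: deviations from the group means had a median correlation of -0.02 over 15 same-number pairs, 5 of them over 0.1. Only Lgr5-Apc has a replicate 4, so the block fits that library exactly and takes it out of every comparison. The block values of Reg3b, Reg3g and Ang4 for Lgr5-Apc against control and against Cdx2-Apc are therefore those found without that library. With the replicate block, Reg3b was at -1.20, Reg3g at -0.71 and Ang4 at -0.11 for Lgr5-Apc against control, and Retnlb at 0.043 and Ang4 at 0.020 for Lgr5-Cdx2-Apc against control. With the block, Reg3g was at 1.80 and called (adjusted p = 0.0430), Retnlb at 1.00 and Ang4 at 0.13 for Lgr5-Cdx2-Apc against Lgr5-Apc, and Reg3b at -0.74, Reg3g at -0.38 and Ang4 at -0.24 for Lgr5-Apc against Cdx2-Apc. The block gave 0 called genes for Lgr5-Apc against control, 2 for Cdx2-Apc against control and 579 for Lgr5-Cdx2-Apc against Lgr5-Apc, where 1 of the 9 genes was called, Reg3g as higher, and the calls on Reg4 (adjusted p = 0.106) and Lypd8 (adjusted p = 0.115) were lost. Reg3g was also called higher with the block for Lgr5-Cdx2-Apc against Cdx2-Apc (1.43, adjusted p = 0.0299).

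Of the 9 genes, the 5 called for Lgr5-Cdx2-Apc against control became 3 with no filter and 0 with the covariate, and 0 to 5 when a library was left out. Lypd8 alone was lost there under quantile normalization (adjusted p = 0.0513) and with only the 2 groups (adjusted p = 0.0567). The 5 for Lgr5-Cdx2-Apc against Cdx2-Apc became 0 with the covariate, and 0 to 5 when a library was left out, and Lypd8 was lost with no filter (adjusted p = 0.0836). The 2 for Lgr5-Cdx2-Apc against Lgr5-Apc became 1 with either pseudocount or quantile normalization, 0 with no filter, a mean of at least 5 FPKM, only the 2 groups or the covariate, 5 with quality weights, and 0 to 3 when a library was left out.

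Over all genes, 3315 were called for Lgr5-Cdx2-Apc against control, and 1925 under the filter on the mean, 6320 with quality weights, 64 with the covariate and 428 to 4686 when a library was left out. The count was 428 without Lgr5-Cdx2-Apc replicate 2, 1046 without Lgr5-Cdx2-Apc replicate 1, 995 without control replicate 3 and 1225 without control replicate 2. For Lgr5-Cdx2-Apc against Cdx2-Apc 4132 genes were called, and 2694 under that filter, 6925 with weights, 61 with the covariate and 506 to 5337 when a library was left out. For Lgr5-Cdx2-Apc against Lgr5-Apc 1560 genes were called, and 502 under that filter, 162 with only the 2 groups, 3843 with weights, 83 with the covariate and 284 to 4463 when a library was left out. For Lgr5-Apc against control 2 genes were called, and 1 under that filter and 1 to 32 when a library was left out, 32 being without control replicate 1. For Cdx2-Apc against control 7 genes were called, and 2 with a pseudocount of 0.1, 2 under that filter, 1 with only the 2 groups, 11 with weights and 6 to 22 when a library was left out. For Lgr5-Apc against Cdx2-Apc 6 genes were called, and 1 under that filter, 56 with weights and 6 to 14 when a library was left out.

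When a library was left out, log2 differences that crossed 0 ranged as follows. For Lgr5-Apc against control, Retnlb ranged between -0.95 and 1.03, Reg3b between -1.20 and 2.54, Reg3g between -0.71 and 1.51 and Ang4 between -0.11 and 0.69. For Cdx2-Apc against control, Ang4 ranged between -0.0088 and 0.31, Retnlb between -0.57 and 1.24, Sval1 between -0.23 and 0.62, Reg3b between -1.25 and 1.14, Reg3g between -0.64 and 0.27 and Lypd8 between -0.42 and 0.034. For Lgr5-Cdx2-Apc against control, Retnlb ranged between -1.04 and 0.78 and Ang4 between -0.60 and 0.36. For Lgr5-Cdx2-Apc against Lgr5-Apc, Reg3g ranged between -0.80 and 1.42 and Retnlb between -0.92 and 0.58. For Lgr5-Cdx2-Apc against Cdx2-Apc, Retnlb ranged between -1.13 and 0.21 and Ang4 between -0.73 and 0.23. For Lgr5-Apc against Cdx2-Apc, Retnlb ranged between -1.04 and 0.18, Lypd8 between -0.69 and 0.14, Reg3b between -0.74 and 2.25, Reg3g between -0.38 and 1.85 and Ang4 between -0.24 and 0.56.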
